A study of Mus musculus with 4 samples.

Results

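The array used here measures many stretches of the mouse genome that the platform annotation pairs with no gene. A transcript cluster is a set of probes that the array's design treats as 1 transcribed unit, and it carries a name that gives a chromosome and a running number. The clusters described here are those with no gene symbol and no Entrez identifier in that annotation. They number 33185 of 65770 transcript clusters, against 32585 annotated ones. An unannotated cluster is unnamed here, which does not mean that it holds no gene. Clusters are called by their names without the shared ending.

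Levels were measured in whole tissue of mice of mixed C57BL/6 x 129 strain, with 1 Affymetrix array for each of 4 groups. WT trachea and Gemc1-null trachea came from males of 39 days, and WT oviduct and Gemc1-null oviduct came from females of 65 days. No treatment was given, and the labels name neither the deleted part of the gene nor pooling of animals. Within a tissue each genotype had 1 array, so no difference between 2 arrays has an error, a test or a replicate check, and fewer cells of a type cannot be told apart from less RNA per cell. Gemc1, whose current symbol is Gmnc, is known as an early factor in the making of multiciliated cells, the cells whose beating cilia line the airway and the oviduct. Transcription outside annotated genes includes long noncoding RNAs, unspliced introns, unannotated exons or long 3' ends, and repeats. Such RNA is often seen next to active genes and is typically less abundant and more tissue-restricted than messenger RNA. No probe sequence or position was used for the clusters themselves, so whether one lies in an exon, an intron or a UTR was not determined.

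All levels below are log2 RMA signals, and differences subtract the WT level from the level labelled Gemc1-null within a tissue, so that 1 is 2-fold. Gmnc stood at 5.90 on the WT and 4.63 on the null trachea array, and at 6.11 on the WT and 8.86 on the array labelled Gemc1-null in oviduct. The oviduct values run against the label, so every oviduct direction below rests on the label alone. Motile cilia markers were past 2-fold on the lower side for 16 of 17 in trachea and 15 of 17 in oviduct. The null trachea also differed from the WT trachea in markers of other cells: 9 of 9 skeletal muscle and 5 of 5 squamous epithelium markers were higher, and 8 of 8 airway secretory, 5 of 5 adipocyte and 6 of 7 lymphocyte markers were lower. In oviduct 7 of 7 ovary and 4 of 5 oocyte markers were lower in the null. The part of these cells in the results was not tested except where values are given.

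The unannotated clusters were dim. Their median level was 5.39 in WT trachea, 5.45 in null trachea, 5.50 in WT oviduct and 5.53 in null oviduct. The annotated clusters had medians of 6.57 to 6.60. The 5222 negative control probe sets are those named as such on the array, and what their probes match was not checked. Their medians were 5.74 to 5.98, with 95th percentiles of 8.70 to 8.87. Most unannotated clusters therefore read below the middle of the negative controls. Between 4.80% and 5.89% of them exceeded the 95th percentile of the negative controls, against 10.8% to 12.3% of the annotated clusters. A small number were among the brightest features of the array: TC1100003794, numbered between Retreg3 and Plekhh3, read 14.50, 14.50, 14.47 and 14.51 in WT trachea, null trachea, WT oviduct and null oviduct. The 6 brightest members lay between 13.99 and 14.51 on every array, with genotype differences of -0.16 to 0.03.

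A cluster's number placed it among named genes. Of 30900 consecutive pairs of annotated 1-gene clusters, 99.0% ascended in RefSeq (GRCm38.p6), and 98.9% of 13596 pairs with known strands were on 1 strand. The number thus follows position along 1 strand, by the left end of each cluster. A cluster numbered after a gene can begin inside that gene or beyond it, and a cluster numbered before a gene begins outside it on the left. RefSeq served only for gene names and gene order.

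The WT arrays differed between the tissues in both directions. Among 13765 members at or above the array median on at least 1 WT array, 975 (7.08%, against 5.91% of all clusters) were at least 2-fold higher in WT oviduct and 767 (5.57%, against 6.19%) were at least 2-fold higher in WT trachea. Tissue, sex and age cannot be told apart in this comparison. With no level filter, 106 of the 1375 members on chromosome X were at least 2-fold higher in WT oviduct and 19 in WT trachea. On chromosome 5 these counts were 107 and 34 of 1968 members, and on chromosome 10 they were 107 and 43 of 1813. On chromosome 2 they were 90 and 63 of 2623. The order was reversed on some chromosomes, such as chromosome 11 with 30 and 88 of 1949. No share over all clusters was taken without the filter, so no excess is read from these counts. Among the largest differences were 3 members on the minus strand of chromosome 10, in and beside the interval between the microRNA genes Mir135a-2 and Mir1251. TC1000002679 read 3.16 in WT trachea, 3.65 in null trachea, 9.92 in WT oviduct and 10.37 in null oviduct. TC1000002680 read 3.68, 4.41, 10.12 and 9.83 in the same order, and TC1000002683, numbered after Mir1251, read 3.95, 4.91, 10.50 and 10.87. Both oviduct arrays stood far above both trachea arrays for these clusters, with little difference between genotypes. The clusters of the microRNA precursors themselves were 3.33 (Mir135a-2) and 3.04 (Mir1251) higher in WT oviduct than in WT trachea. TC1000002682, the member directly after Mir1251, was 4.37 higher. The mature forms of these microRNAs from RefSeq (GRCm38.p6, chromosome 10, minus strand) are shown because they mark the locus, with the seed, bases 2 to 8, in capitals. The mature RNAs were not measured.
mmu-miR-135a-5p: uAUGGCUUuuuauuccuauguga
mmu-miR-1251-5p: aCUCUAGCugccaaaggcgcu

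The largest difference in the other direction was at TC1600000257 on chromosome 16, in an interval bounded by the coding genes Hira and Olfr166. It read 8.97 in WT trachea, 3.39 in null trachea, 3.62 in WT oviduct and 3.74 in null oviduct. Only the WT trachea array held a signal above the negative-control median there. The null trachea read with the oviduct arrays and was at least 9.37-fold lower than the WT trachea, with the null level raised to the negative-control median.

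In trachea 13673 members reached the array median on at least 1 of the 2 arrays. Of these 904 (6.61%, against 7.35% of all clusters) were at least 2-fold lower and 529 (3.87%, against 5.41%) at least 2-fold higher on the null array. In oviduct 250 of 13385 (1.87%, against 2.52%) were lower and 111 (0.829%, against 0.821%) higher. The members' shares stood below the shares over all clusters in 3 of these 4 comparisons and close to it for members higher in null oviduct. For negative controls past the same filter the shares were 8.87% lower and 1.89% higher in trachea, and 2.72% lower and 3.74% higher in oviduct. A 2-fold difference by itself therefore does not separate members from these controls. Larger differences were rare among the controls. At 8-fold or more 80 members (0.585%, against 0.820% of all clusters) and 1 negative control were lower in null trachea, and 25 members (0.187%, against 0.218%) and 1 negative control were lower in null oviduct. On the dimmer array 445 of the 904 trachea-lower and 149 of the 250 oviduct-lower members were below the negative-control median. For such members a fold given as "at least" is taken against that median and is smaller than the fold as measured.

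The share past 2-fold depended on level in different ways for members and controls. Between mean levels of 4 and 5, 1.26% of the members and 13.4% of the negative controls were lower in null trachea. Between 7 and 8 the shares were 6.87% and 4.91%, with 7.66% for annotated clusters. In oviduct between 7 and 8, 1.79% of the members, 2.64% of the annotated clusters and 1.06% of the negative controls were lower.

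**Figure D1:**
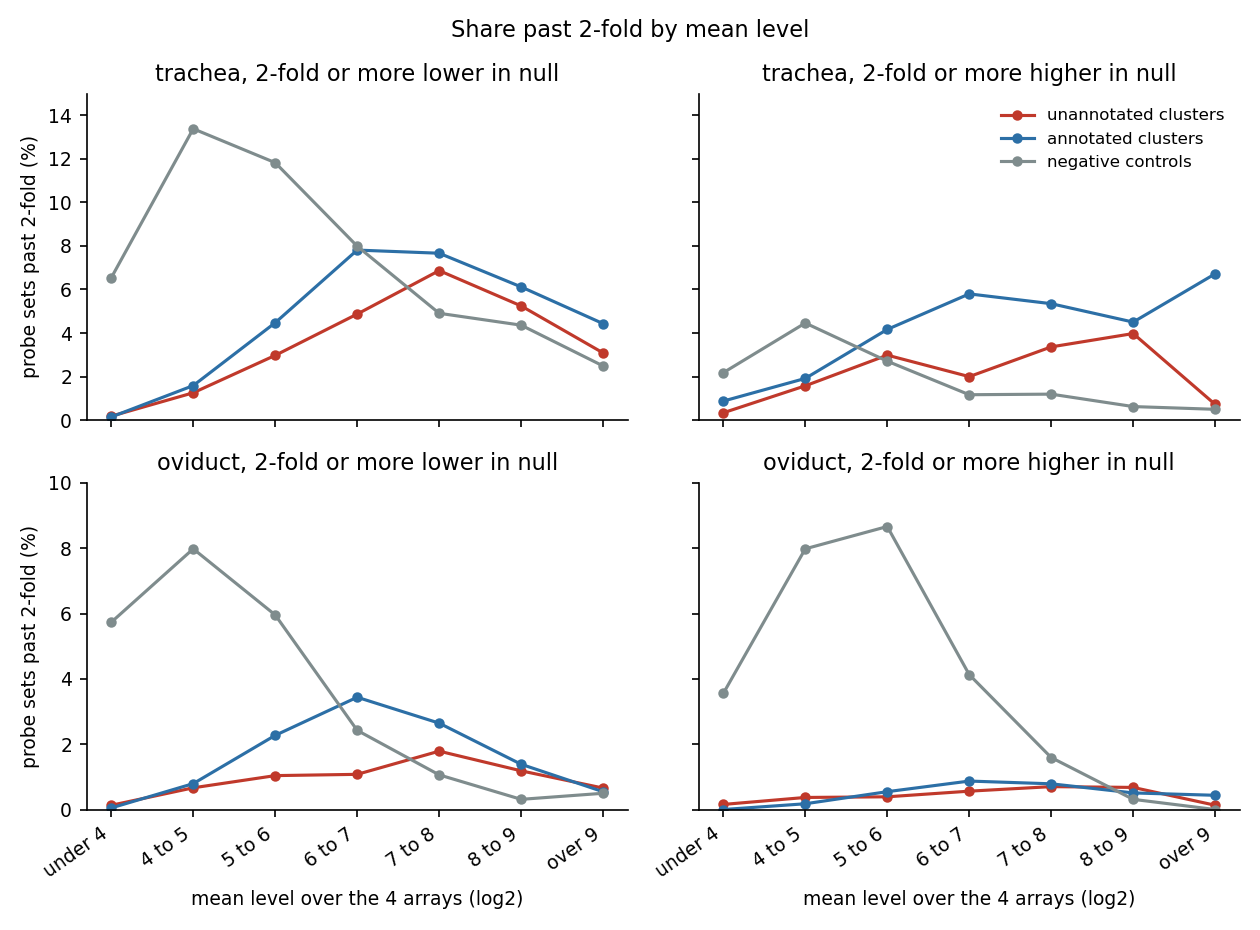
Share of probe sets at least 2-fold lower (left) or higher (right) on the null array in trachea (top) and oviduct (bottom), in percent, by mean log2 level over the 4 arrays, with no level filter; each point is 1 class in 1 bin. Negative controls exceed 8% past 2-fold at mean levels of 5 to 6 in 2 of the 4 panels, while members lower in trachea peak at 6.87% between 7 and 8.

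Over both tissues 12042 members passed the filter in each. Of these 73 (0.606%, against 1.03% of all clusters) were lower in both and 2 (against 0.0469% of all clusters) were higher in both. Among negative controls 7 (0.282%) were lower in both. At 4-fold or more 12 members (against 0.284% of all clusters) and 0 negative controls were lower in both tissues. The 73 members lay on 18 chromosomes. Their median was 7.34 on the WT trachea and 5.50 on the null trachea array, and 7.61 on the WT oviduct and 5.73 on the null oviduct array. On both null arrays 36 of them were below the negative-control median, and 24 were above it on all 4 arrays.

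Members lower in both tissues more often had a neighbouring gene with the same pattern than other members did. An annotated neighbour, the nearest in number on either side, was also lower in both tissues for 30 of the 69 with usable neighbours (43.5%), against 1.51% of 11411 other members. The 30 lay beside 23 genes. For 39 of the 69 neither neighbour was lower in both. The members described next lay beside genes of cilia, centrosomes or axonemes and were picked after their values were seen; no count by gene function was made. TC0300003092, numbered directly after Wdr63, which encodes an intermediate chain of an inner arm of axonemal dynein, read 11.28 in WT trachea, 7.44 in null trachea, 11.45 in WT oviduct and 8.09 in null oviduct. Wdr63 itself read 7.78, 5.19, 8.08 and 5.08 on the same arrays. Both tissues had high WT and low null levels for the cluster and for the gene.

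TC1400000266, numbered after Dnah12, an axonemal dynein heavy chain, read 7.56, 5.57, 7.61 and 5.56, and Dnah12 was 4.20 lower in null trachea and 4.46 lower in null oviduct. TC0X00002523 lay in number between clusters of Cfap47, a cilia and flagella protein, and read 6.52, 4.09, 7.85 and 5.54. Its null trachea level lay below the negative-control median, and with levels raised to that median its trachea difference was -0.78, under 2-fold. TC0400002075, after Cfap74, read 8.20, 6.22, 8.51 and 6.24, and Cfap74 read 7.78, 6.05, 8.27 and 6.10. For these 3 members and their genes the WT array read above the null array in both tissues. TC1600001520, after Iqcg, a member of the nexin-dynein regulatory complex, read 7.77, 6.27, 8.44 and 6.71. TC0500002019 began inside Fbxl13, of the same complex, and read 6.23, 5.19, 7.76 and 5.18, with both null levels below the negative-control median. Fbxl13 was 2.46 lower in trachea and 3.37 lower in oviduct. TC0100001857, numbered directly before Nek2, a centrosomal kinase, read 8.85, 5.50, 8.82 and 5.56. It was at least 8.62-fold lower in trachea and at least 8.14-fold lower in oviduct, and Nek2 was 1.09 and 1.68 lower on the log2 scale. TC0100001903, before Rp1, whose product binds microtubules of the photoreceptor cilium, read 6.78, 4.48, 7.58 and 5.21.

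Other members lower in both had no such neighbour. TC0200000527, between Tbc1d13 and Endog, read 8.26, 4.93, 9.35 and 5.33, at least 5.71-fold lower in trachea and at least 11.8-fold lower in oviduct. Endog was 0.27 and 0.51 lower. TC0200001595 and TC0200001594, consecutive in number between Immp1l and Mpped2, had null levels of 3.30 to 4.84, all below the negative-control medians. TC0200001595 was at least 2.33-fold lower in trachea and at least 2.92-fold lower in oviduct, and TC0200001594 at least 2.73-fold and at least 4.48-fold lower, while Mpped2 was 0.53 higher in trachea and 0.09 lower in oviduct. TC1000000361, between Wasf1 and Zbtb24, was at least 3.63-fold lower in trachea and at least 5.84-fold lower in oviduct. TC1000000362, next in number, read 7.29, 5.01, 7.98 and 5.13, with both null levels below the negative-control median. TC0500001214, between Iscu and Dao, read 8.94, 6.98, 9.74 and 5.05, and Iscu and Dao differed by -0.20 to 0.06. For each of these 6 members the coding genes on both sides were under 2-fold in both tissues. Of 31 members beside the 17 measured cilia markers, 11 passed the filter in trachea and 10 in oviduct. Of these 0 were 2-fold lower in either tissue, against 7.35% of all clusters in trachea and 2.52% in oviduct. With so few members, 0 does not set them apart from clusters in general.

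**Figure D2:**
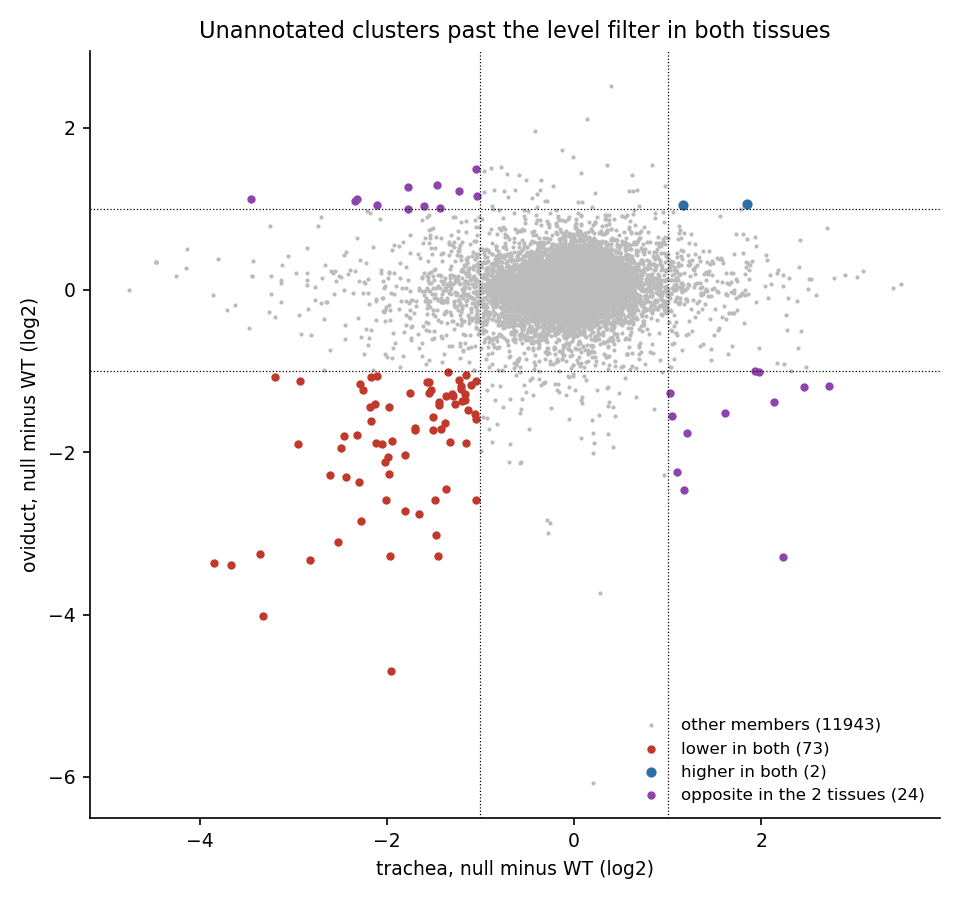
Difference null minus WT (log2) in trachea (x axis) and oviduct (y axis) for the 12042 unannotated clusters past the level filter in both tissues; dotted lines mark 2-fold. The 73 members lower in both fill the lower left, 2 are higher in both, and 24 lie past 2-fold in opposite directions.

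In opposite directions past 2-fold were 12 members lower in trachea and higher in oviduct (0.0997%, against 0.287% of all clusters) and 12 with the reverse pattern (0.0997%, against 0.0906%). The 2 members higher in both were TC0900000071 and TC0700004090. The former, numbered after Pgr, the progesterone receptor, read 4.87 in WT trachea, 6.72 in null trachea, 9.28 in WT oviduct and 10.34 in null oviduct. Its WT trachea level lay below the negative-control median, and with levels raised to that median its trachea difference was 0.73, so that TC0700004090 alone remained higher in both. Pgr was 1.08 higher in trachea and 0.79 higher in oviduct. TC0700004090, before Sbf2, read 8.99, 10.16, 7.34 and 8.39, with Sbf2 within 0.06 of no difference.

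A joint limma fit over both tissues, with tissue as a block, left 1 residual degree of freedom. It called 0 of 15016 members lower and 0 higher at an adjusted p of 0.05 (0% of all 37486 clusters in each direction), and the smallest adjusted p was 0.668. At an unadjusted p under 0.05, 294 members (1.96%, against 2.40% of all clusters) were lower and 174 (1.16%, against 0.995%) higher. In simulated data with the same arrangement of arrays the fit recovered 0% of clusters changed by 2 or by 4 on the log2 scale. The simulated noise was a chosen setting and was not matched to these arrays, so that share does not show what the fit could find here. With 1 residual degree of freedom, no conclusion about the members is drawn from 0 calls. TC0300003092 was lower by a joint log2 difference of -3.60 (SE 0.204), with an adjusted limma p of 0.668. TC0100001857 had -3.30 (SE 0.151) and the same adjusted p.

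Members past 2-fold tended to have a neighbouring gene past 2-fold in the same direction. In trachea 426 of 887 lower members (48.0%) had an annotated neighbour that was also lower, against 7.86% of 12715 other members, and 46.3% of the higher members had a higher neighbour, against 6.88%. The 529 higher members include 91 on chromosome Y. With 1-gene neighbours in RefSeq order within 2 Mb, the share of the higher members was 39.6% (170 of 429), against 6.96%. In oviduct the shares with any annotated neighbour were 30.5% against 3.08% for lower and 39.6% against 0.644% for higher. Members can share a neighbour and are not independent. Of the 44 oviduct-higher members with a higher neighbour, 17 follow the single gene Kcnip4, and a run of 6 follows Prkce. With neighbours restricted to adjacent numbers the share of oviduct-higher members was 20.8% (11 of 53), against 0.301% of the others. The called neighbour was more often on the side that can contain the member. Among 791 trachea-lower members with coding genes in order on both sides, the gene numbered before was lower for 39.2% and the gene numbered after for 12.1%. Among 96 oviduct-higher members it was 39.6% and 3.13%. Among members not lower in trachea the order was the other way, 4.99% before and 6.61% after.

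Adjacent members also resembled each other. Over 4141 pairs of consecutive unannotated clusters the trachea differences correlated at r = 0.703, against r = 0.384 for pairs of an unannotated and an annotated cluster and r = 0.358 for annotated pairs. In oviduct the values were 0.593, 0.338 and 0.258. These are descriptions across clusters of the same 2 arrays, and neighbouring clusters can belong to 1 transcript.

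For some members the order of genes showed that they begin inside a gene on their own strand, since that gene reaches past the start of the next one. In trachea 356 such members passed the filter, in 181 genes. Where the gene was at least 2-fold lower, 26 of 27 members were lower too (96.3%), against 6.08% of 329 members in other genes. Where it was higher, 10 of 21 members were higher, against 3.28% of 335. Members and genes correlated at r = 0.792 in trachea and r = 0.729 in oviduct, and 0 called members had a gene called in the opposite direction. The members share genes: 7 of the lower ones lay in Rabgap1l, 6 in St6galnac3, a sialyltransferase gene, and 4 in Inpp4b, a phosphatase gene. Among genes with higher members, Dmd, the dystrophin gene, held 4 of 5 passing members higher, Sgcd, which encodes delta-sarcoglycan, held 4 of 5, and the noncoding Snhg14 held 6 of 6. Dmd read 6.85 on the WT and 8.50 on the null trachea array and Sgcd 7.17 and 8.25; both encode proteins of the muscle membrane, and the summed linear signal of the skeletal muscle markers was 1243 on the WT and 43388 on the null trachea array. Beside the skeletal muscle markers themselves 3 members passed the filter in trachea. Of these 1 was lower and 0 were higher (against 7.35% and 5.41% of all clusters), with a median difference of -0.55. Whether muscle in the dissected tissue has a part in the values of Dmd, Sgcd and their members was not tested.

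Runs of members consecutive in number and past 2-fold in the same direction made the pattern visible along the chromosome. There were 34 runs of 4 or more, 25 lower and 5 higher in null trachea, 1 lower and 3 higher in null oviduct. Of the 34 runs 30 fell in 27 stretches with a coding gene in order on each side, whose members are counted below with no level filter. The gene numbered before the stretch was past 2-fold in the direction of the run in 19 of the 27, and the gene numbered after it in 0.

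The longest run held 13 of 14 members between Bach2 and Casp8ap2 on the plus strand of chromosome 4, lower in null trachea. The 13 members read 6.88 to 9.73 on the WT array and 4.87 to 6.79 on the null array. Stretch medians are of differences as measured, with no level raised to the negative-control median. Where the dimmer level is below that median, the measured difference is larger than the bound against it. The median difference over the stretch was -2.36 in trachea and -0.07 in oviduct. Bach2, a transcription factor of B and T cells, was 2.30 lower in null trachea and Casp8ap2 was 0.39 lower. Between Aff3, a nuclear protein of lymphoid cells, and Lonrf2, 10 of 12 members were at least 2-fold lower, with a median of -1.95 and with Aff3 1.11 lower. The stretch after Ebf1, a transcription factor of early B cells, held 8 of 12 lower members with a median of -1.49, while Ebf1 itself was 0.56 lower. All 6 members between Dock2, which drives leukocyte migration, and Spdl1 were lower, with a median of -2.52 against -3.36 for Dock2. After Lef1, a transcription factor of lymphocytes and of Wnt signalling, 5 of 6 were lower, with a median of -1.84 against -2.99 for Lef1. After Prkcb, a protein kinase C gene with a role in B cells, 6 of 7 were lower, with a median of -1.94 against -2.24. The oviduct medians of these stretches lay between -0.60 and 0.23. The list does not hold all trachea-lower stretches. Those of Dock2, Lef1 and Prkcb were picked after values were seen, ahead of longer runs after Ptk2b, St6gal1 and St6galnac3. Others followed Zfp608, Mecom, Elovl2 and Gm765, and Elovl2 and Gm765 were 0.26 and 0.24 higher in null trachea. No count of stretches by gene function was made. Of 6 members beside the chosen lymphocyte markers 3 passed the filter in trachea. Of these 1 was lower and 2 were higher (against 7.35% and 5.41% of all clusters), with a median difference of 1.08. The lymphocyte markers had a summed linear signal of 5160 in WT trachea and 444 in null trachea, and of 429 and 533 in WT and null oviduct. Its part in the runs was not tested.

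TC0400002561, directly before Pax5, the B-cell lineage factor, belonged to the same pattern of levels. It read 10.97 in WT trachea, 7.16 in null trachea, 7.30 in WT oviduct and 7.69 in null oviduct, and Pax5 read 8.99 and 6.58 in the tracheas. TC0100001496, between the adhesion genes Sele and Selp, read 10.42, 5.60, 5.67 and 5.87, at least 25.5-fold lower in null trachea. Sele was 0.02 lower and Selp 0.49 higher there. Of the other trachea-lower stretches, all 5 members after Muc16, a membrane mucin of mucosal surfaces, were lower, with a median of -3.05 against -2.71 for Muc16 and 0.17 for the same members in oviduct.

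The longest run of members higher in null trachea lay between Kcnq5, a potassium channel gene, and Rims1 on the minus strand of chromosome 1. It held 9 of 10 members with a median difference of 2.40, and Kcnq5 was 2.02 higher. The same members had a median difference of -0.92 in oviduct, where Kcnq5 was 0.51 lower. Of the other trachea-higher members, TC0700002081, between Mrpl23 and Igf2os, read 6.86, 10.35, 6.82 and 6.90 in WT trachea, null trachea, WT oviduct and null oviduct. TC1800000981, directly before the precursor of the muscle microRNA Mir133a-1, read 6.27, 9.67, 6.12 and 6.14, and that precursor was 1.57 higher in null trachea. In each of these only the null trachea array was high. TC1100003921 lay between Cd79b and Icam2, which were 4.36 and 1.43 lower, but was itself 3.09 higher. TC0700004277 was the reverse case: it lay between Nfatc2ip and Atp2a1, the calcium pump of skeletal muscle, and read 10.10 in WT and 5.85 in null trachea while Atp2a1 read 6.44 and 12.97. For both clusters 1 array of the tissue was high and the neighbouring gene was high on the other.

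**Figure D3:**
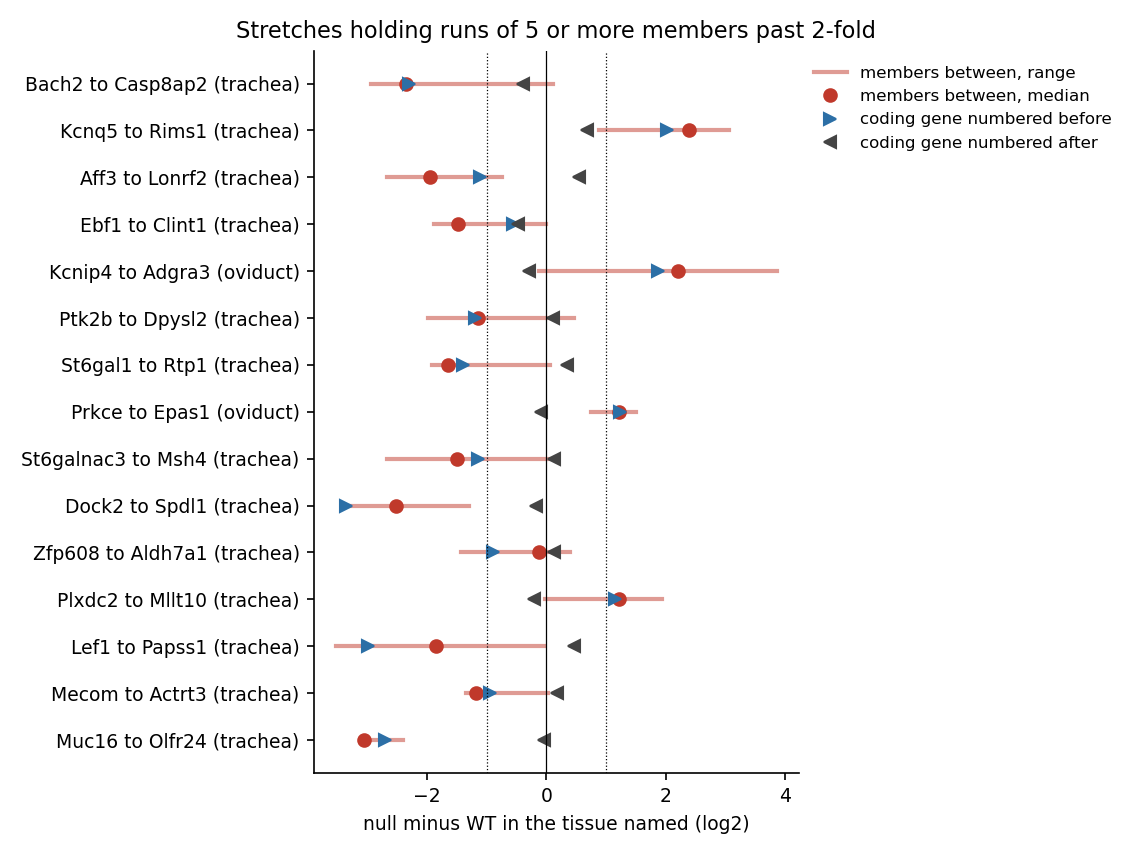
Difference null minus WT (log2) in the tissue named for the 15 stretches between 2 coding genes that hold a run of 5 or more members past 2-fold; the bar is the range and the circle the median over all unannotated clusters between the genes, and triangles are the genes numbered before and after. In 12 of 15 stretches the gene before is past 2-fold in the direction of the run, and in 0 the gene after, whose differences lie between -0.47 and 0.68.

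The 2 members with the largest differences in oviduct lay beside genes of the ovary. TC0300002563, between Hsd3b6 and Hsd3b1, steroidogenic dehydrogenase genes, read 5.79 in WT trachea, 6.00 in null trachea, 12.31 in WT oviduct and 6.24 in null oviduct, a difference of -6.08. Hsd3b1 read 10.42 in WT and 4.94 in null oviduct. TC1700002719, directly before Fshr, the receptor for follicle-stimulating hormone, read 4.46, 4.57, 10.57 and 4.82, at least 27.5-fold lower in null oviduct, while Fshr was 1.25 lower. In both cases only the WT oviduct array was high. Next in size, and beside no ovary marker, were TC0500001214, whose levels are given among the members lower in both, and TC1500000078, between Capsl and Rad1, which read 3.93, 4.60, 9.66 and 5.16. It was at least 14.6-fold lower in null oviduct, while Capsl was 0.70 and Rad1 0.08 lower. TC0500000239, TC0500000241 and TC0500000244, on the plus strand between Cct8l1 and Gm7361, read 10.88, 10.52 and 10.09 in WT oviduct and 7.10, 6.79 and 6.16 in null oviduct. Of 26 members beside the ovary markers 6 passed the filter in oviduct and 4 of them were lower (against 2.52% of all clusters). The median over the 6 was -3.14. The 4 include TC0300002563 and TC1700002719, which were named for the size of their differences, so the count is not separate from them. The summed linear signal of the ovary markers was 12258 in WT and 664 in null oviduct, against 668 and 733 in the tracheas. Whether ovary in the dissected WT tissue has a part in these differences was not tested.

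The members higher in null oviduct were concentrated on chromosome 5, which held 24 of the 111. Most of the 24 lay in 1 stretch: 30 members lie between Kcnip4, which encodes a potassium channel-interacting protein, and Adgra3 on the minus strand, with no annotated cluster between. Of the 30, 21 were at least 2-fold higher in null oviduct, 17 of which passed the level filter, and all 21 were among the first 23 in number after Kcnip4. Their levels ran from 3.24 to 5.90 with a median of 4.23 on the WT oviduct array, and from 5.10 to 8.42 with a median of 6.66 on the null oviduct array. The WT median lay below the negative-control median of 5.77. The measured differences of the 21 ran from 1.24 to 3.86. With levels raised to the negative-control median, the largest of these, at TC0500002374, was 2.36. TC0500002356, TC0500002357, TC0500002373 and TC0500002375 read 5.10 to 5.61 on the null oviduct array. These levels were also below the negative-control median of that array, 5.79. The exceptions among the 23 were TC0500002360, with 0.88, and TC0500002365, which read 8.65 and 8.97. The last 7 members before Adgra3 differed by -0.11 to 0.55 and read at most 5.12 on either oviduct array. The boundary fell between TC0500002378, 2.82 higher, and TC0500002379, 0.23 higher. Kcnip4 itself read 5.50 in WT and 7.37 in null oviduct, and Adgra3 read 8.70 and 8.42. In trachea the 30 members differed by -0.17 to 1.25 with a median of 0.44, and 2 were past 2-fold. The RefSeq model of Kcnip4 ends before Adgra3 begins, so the numbering alone does not say which of the members begin inside it.

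**Figure D4:**
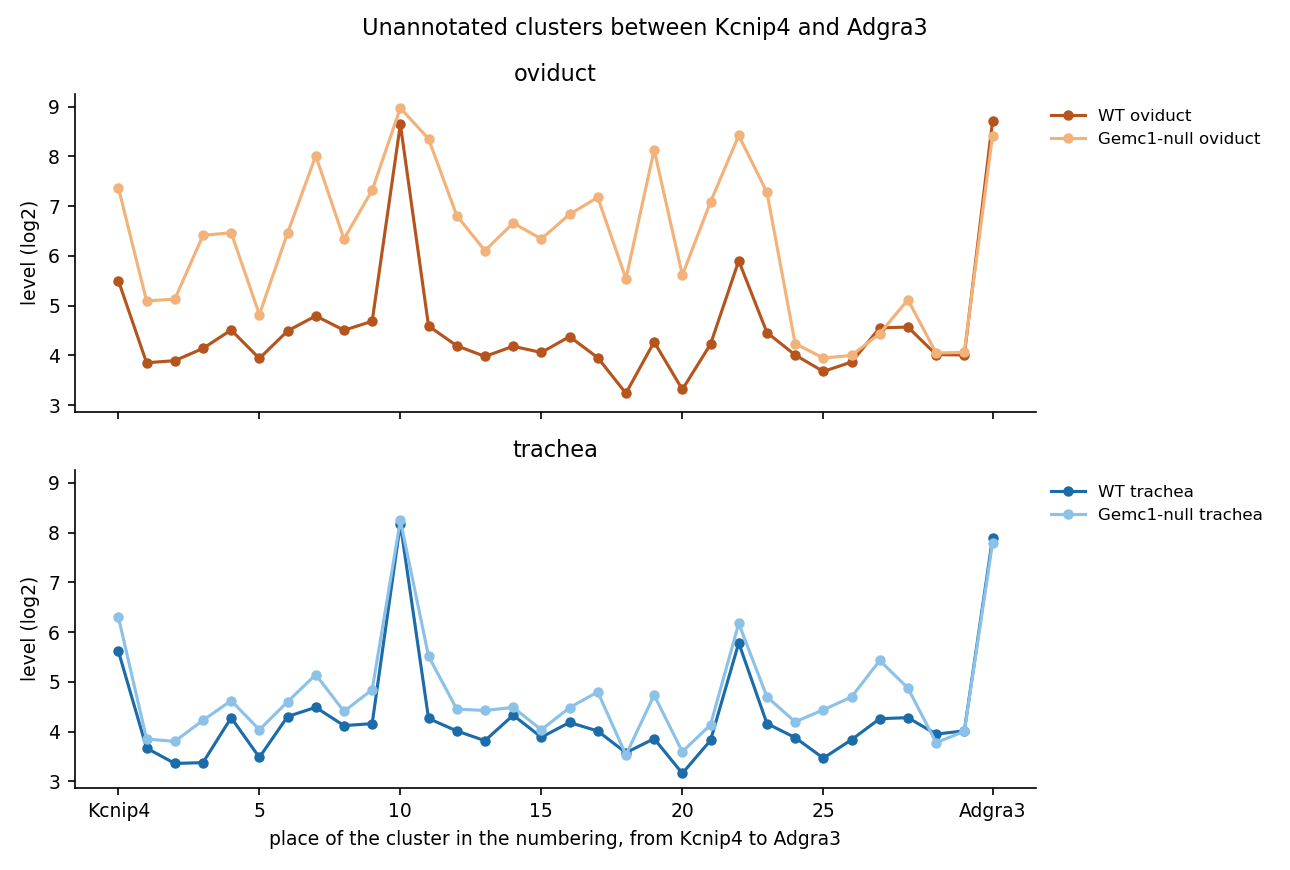
Log2 level on each array for Kcnip4, the 30 unannotated clusters numbered after it and Adgra3, in order of number (x axis); top, oviduct, bottom, trachea, 1 array per line. From place 1 to 23 the null oviduct line stands above the WT line, by 1.24 to 3.86 for 21 of the clusters, and from place 24 the lines differ by at most 0.55; the trachea lines differ by at most 1.25.

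A second oviduct stretch lay between Prkce, a protein kinase C gene, and Epas1. There 7 of 9 members were higher, with a median of 1.22, as was Prkce with 1.23; the median of the same members in trachea was -0.75. TC0700003571, directly after Anpep, which encodes an aminopeptidase of epithelial surfaces, read 7.33 in WT and 9.29 in null oviduct, and Anpep was 1.75 higher.

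Chromosome Y behaved unlike the others in trachea. It held 300 members, of which 122 passed the filter in trachea, and 91 of these (74.6%, against 5.41% of all clusters) were at least 2-fold higher in null trachea, with 0 lower. They make up 91 of the 529 trachea-higher members. All 91 read below the WT trachea array median of 5.91 on the WT array and passed the filter only through the null array. The filter therefore raises their share of the 122. Without the filter 109 of the 300 were past 2-fold higher (against 3.28% of all clusters). The 109 held 70 distinct sets of values, since repeated clusters can carry identical readings. The difference was above 0 for 287 of the 300, with a median of 0.76 and a maximum of 1.35. The 109 members read at most 5.830 on the WT and at most 6.984 on the null trachea array, levels below the 95th percentile of the negative controls. All their WT levels lay below the WT trachea negative-control median of 5.985. With WT levels raised to that median, none of the 109 stays 2-fold higher. On the oviduct arrays, from females, the same 109 read at most 5.20 and 5.18. Among annotated clusters of the chromosome 45 of 67 passing ones (67.2%) were higher too. The genes Kdm5d, Eif2s3y and Uty of the same chromosome, all expressed widely in males, were 0.23, 0.10 and 0.22 lower in null trachea. These genes thus did not share the rise, and their differences were close to the negative-control median difference of -0.17 in trachea. Annotated clusters of the chromosome past 2-fold higher had medians of 5.23 on the WT and 6.48 on the null trachea array. They reached 12.04 and 13.08 there, so the rise was not limited to dim clusters, though most were dim. The same annotated clusters reached 12.11 on the WT and 12.15 on the null oviduct array, from females. The brightest readings were therefore not particular to males. The mixed strain of the mice is given in the labels, and its part was not tested.

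**Figure D5:**
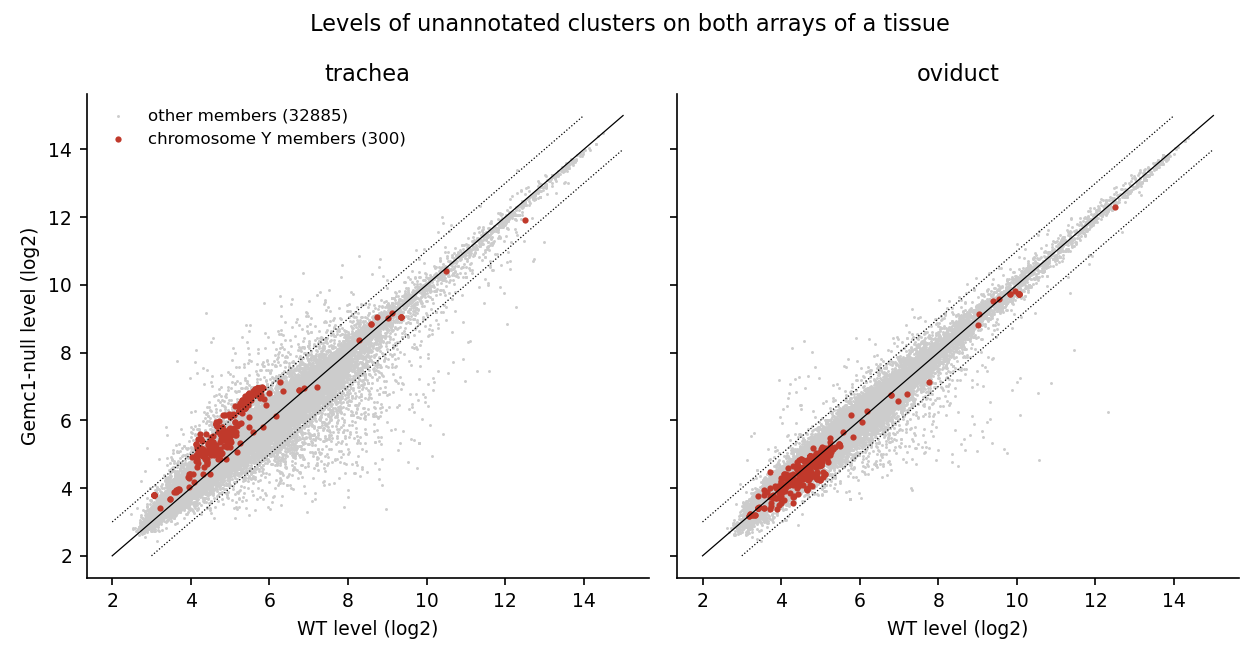
Log2 level of every unannotated cluster on the WT (x axis) and null (y axis) array of trachea (left) and oviduct (right), with the 300 members of chromosome Y in red; the solid line marks equal levels and dotted lines 2-fold. In trachea 109 chromosome Y members lie on or above the upper 2-fold line, at levels of at most 6.98, and in oviduct they follow the line of equal levels.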

How the data were processed

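Total RNA of 4 tissue samples was labelled with biotin and hybridised to 1-colour Affymetrix arrays, per the labels' protocols. The authors deposited 1 log2 value per probe set and array, made with RMA per the submitters' processing notes; no version, scan batch or genome build of the array was found in the sources used here. The deposited log2 values carry a second log2, since 2 to the power of them were 6-digit numbers in 100% of cells, so that power was used. Of 72688 probe sets 65770 were transcript clusters. Names came from the platform annotation, updated through RefSeq: 31087 clusters had 1 gene, 1498 had several or were unresolved, and 33185 had none.

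A member passed the level filter in a tissue at or above the median over all probe sets on at least 1 of its 2 arrays. Clusters were counted at 2-fold, with no p-value. A fold against a level below the array's negative-control median is given as "at least", against that median. Limma 3.58.1 (R 4.3.3) fitted all clusters passing in either tissue, with Benjamini-Hochberg adjustment. Neighbours needed RefSeq starts in order within 2 Mb where coding genes were used. The rule for named clusters took the largest differences per tissue and direction, the largest in both tissues and in opposite directions, the smallest p-values, the highest means, the largest WT tissue differences and the longest runs. Members, lists and rules were chosen with earlier results of these data known; the coding neighbours, the genes that hold members, the stretches, chromosome Y and chromosome 10 were looked at after values were seen. The functions were tested on simulated data. Precision is limited by the number of arrays.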

Additional observations from a re-analysis of the deposited data

Results flagged for a closer look

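Of the 24 members with differences past 2-fold in opposite directions, the 8 that the naming rule took are given here. For each the difference in trachea and the difference in oviduct were both past 2-fold and had opposite signs. With 1 array per group the difference between the tissues was not tested. The values below are the oviduct difference minus the trachea difference, on the log2 scale.

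TC0100000429, between the aldehyde oxidase genes Aox3 and Aox4, had 4.58. It read 7.76 in WT trachea, 4.31 in null trachea, 7.35 in WT oviduct and 8.47 in null oviduct, and Aox3, numbered directly before it, read 8.92, 5.49, 8.53 and 9.53. TC0700002467, before Foxa3, had 3.04, with a trachea difference of -1.77 and an oviduct difference of 1.27. TC1200002553, in the immunoglobulin heavy chain locus directly before Ighv5-2, had 2.76 and read 10.13, 8.67, 8.72 and 10.02. TC0600001853 on chromosome 6 had 2.45.

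TC0X00000560, near Cdr1os, the host transcript of the circular RNA Cdr1as, had -5.52. It read 6.94 in WT trachea, 9.17 in null trachea, 9.24 in WT oviduct and 5.95 in null oviduct, and Cdr1os was 0.85 higher in trachea and 1.86 lower in oviduct. TC1400002182, after Tnfrsf19, had -3.51. TC0600000160 and TC0600000165, both numbered after Kcnd2, a potassium channel gene, had -3.13 and -2.97, and with levels raised to the negative-control median their trachea differences of 1.62 and 1.20 were 0.26 and 0.57, under 2-fold. Kcnd2 was 0.77 higher in trachea and 0.75 lower in oviduct.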

How the results depend on the processing

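The counts moved with the threshold and the filter. At 1.5-fold the trachea counts were 1852 lower and 1133 higher, the oviduct counts 612 and 511, and the counts in both tissues 173 and 53. At 3-fold they were 405 and 170, 120 and 32, and 29 and 0. Asking for a level above the negative-control 95th percentile left 149 and 77 in trachea, 42 and 19 in oviduct and 4 and 0 in both. Without a filter 6 members were higher in both. With levels raised to the negative-control median before the difference, 274 were higher in trachea, 46 lower and 1 higher in both, and the trachea difference of TC0500002366 turned from 1.25 to -0.24; 82 other named values kept direction and threshold and 4 fell under 2-fold, the trachea differences of TC0X00002523, TC0900000071, TC0600000160 and TC0600000165. Centring on annotated clusters left each of the 6 counts within 1.5 times the main one. Counting identical profiles once and leaving out chromosome Y, both chosen after seeing the data, gave 491 and 438 trachea-higher members. The joint fit called 0 members under each of 5 alternatives; without the tissue block, with 2 residual degrees of freedom, an unadjusted p under 0.05 was reached by 176 lower and 57 higher members. With neighbours restricted to adjacent numbers the share of trachea-lower members with a lower neighbour was 39.6%, and that of oviduct-higher members with a higher one 20.8%. The causes were not tested. The log-scale alternative was not run because the scale was settled. No paired analysis was possible because each group has 1 array, and no array could be left out.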

Other observations

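Of 71 members on scaffolds without a chromosome place that passed the filter in trachea, 17 (23.9%, against 7.35% of all clusters) were at least 2-fold lower in null trachea and 0 higher (against 5.41%). In oviduct 1 of 73 was lower (1.37%, against 2.52%). The scaffold members share readings: the 71 hold 47 distinct sets of values and the 17 hold 13. TC4_JH584293_random00000003 read 11.59 in WT trachea, 7.45 in null trachea, 7.32 in WT oviduct and 7.83 in null oviduct. Of all 33185 members 830 shared all 4 values with another cluster, in 210 sets of which the largest held 63 clusters, and 22 of the 830 shared them with an annotated cluster.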
